A study of Mus musculus with 48 samples.

Results

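The kinesin genes were taken as all genes whose mouse symbol starts with Kif and a digit, pseudogenes left out, that were listed in at least 10 of the 12 whole-cell libraries of the series. This rule gave 30 of the 23862 genes in the files. One of them, Kif1bp, encodes a protein that binds kinesins and is no motor, so it was set apart and 29 kinesins remained. By textbook role, 11 of these act mainly in cell division, 11 carry cargo along microtubules, 3 belong to cilia and centrioles, and 4 fit none of these roles. All 29 are described here, and 25 of the 30 genes were listed in all 48 libraries. Of 40 symbols that fit the pattern in the reference table, 6 were listed in too few whole-cell libraries (Kif1c, Kif6, Kif9, Kif17, Kif21a and the antisense gene Kif16bos) and 4 in none (Kif2b, Kif7, Kif12 and Kif28).

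Kinesins are motor proteins that use ATP to walk along microtubules or to take them apart at their ends. In dividing cells they slide spindle poles apart, move and align chromosomes, and bundle the central spindle on which daughter cells separate. Between divisions other kinesins pull vesicles, organelles and RNA granules toward the cell periphery. Embryonic stem cells divide fast and rely on the mitotic motors, whereas several transport motors are best known from neurons.

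The cells were E14TG2a, a line of mouse embryonic stem cells grown with LIF and both inhibitors of the 2i medium, and every group received 1 µM flavopiridol, an inhibitor of the kinase CDK9 that stops transcription by RNA polymerase II. Polyadenylated RNA was read from whole cells (total RNA) and from nuclear, cytosolic and membrane fractions after 30, 60, 120 and 240 min, with 3 independently passaged cultures per fraction and time. The last time is 240 min in the sample labels and 180 min in the protocol text, and the labels were followed. Values are ratios to the 0 min level of the gene within a fraction, so 1 stands for an unchanged level. The 0 min libraries were not analysed here, and no arm without the drug was used, so loss of RNA cannot be told apart from other effects of the drug. All 48 libraries come from 1 cell line, and 6 of 7 stem cell markers were listed in every total library against 4 of 11 markers of other cell types. By type these were 2 of 2 mesoderm, 1 of 2 neural, 1 of 3 fibroblast and 0 of 4 endoderm markers. Being listed gives no level, so the purity of the cultures cannot be read from this. Read depth is not stated in the files, levels cannot be compared between genes or fractions, and fewer cells and less RNA per cell cannot be told apart. The nuclear 30 min library of replicate 1 stood apart, with a median log2 ratio over all genes of -0.76 against -0.08 and -0.28 in the other replicates. The nuclear count of falling kinesins, the class difference and the calls between nucleus and cytosol are given with and without it. Other nuclear results include it unless replicate 1 was left out.

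Most kinesin transcripts fell after the block. A straight line through log2 ratio against time was fitted and its slope tested with limma across all genes of a fraction, and a gene was called at a Benjamini-Hochberg adjusted p under 0.05. In total RNA 23 of 29 kinesins fell, 1 rose and 5 were not called. Among all 12762 genes tested in total RNA, 56.9% fell and 3.39% rose. In the nucleus 21 of 28 kinesins fell and none rose, where 61.9% of all genes fell and 3.32% rose. No kinesin rose there at an unadjusted p under 0.05 either, but Kif26b, described below, could not be fitted in the nucleus because 1 library did not list it. Without the nuclear 30 min library of replicate 1, 23 of 28 fell. In the cytosol 22 of 28 fell and 1 rose, where 67.1% of all genes fell and 2.95% rose. In the membrane fraction 23 of 27 fell and 1 rose, where 62.2% of all genes fell and 4.09% rose.

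These counts depend on the scaling of the libraries. The authors scaled on transcripts known to be long-lived, and the median gene then fell, with a slope (log2 per hour) of -0.22 in total RNA, -0.26 in the membrane fraction, -0.28 in the cytosol and -0.30 in the nucleus. Measured against the median gene of each library, 11 kinesins fell and 2 rose in total RNA. Over all 12762 genes, 3961 fell and 3672 rose there by this measure. In the membrane fraction 12 kinesins fell and 4 rose, where 3837 of all 12408 genes fell and 3513 rose. In the cytosol 13 fell and 5 rose, where 3887 of all 11979 genes fell and 3520 rose. In the nucleus 10 fell and 10 rose, where 3897 of all 13343 genes fell and 3954 rose. In total RNA a kinesin with a slope near -0.22 therefore moved like the median transcript. The median slope of the 29 kinesins was -0.28 in total RNA.

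**Figure D1:**
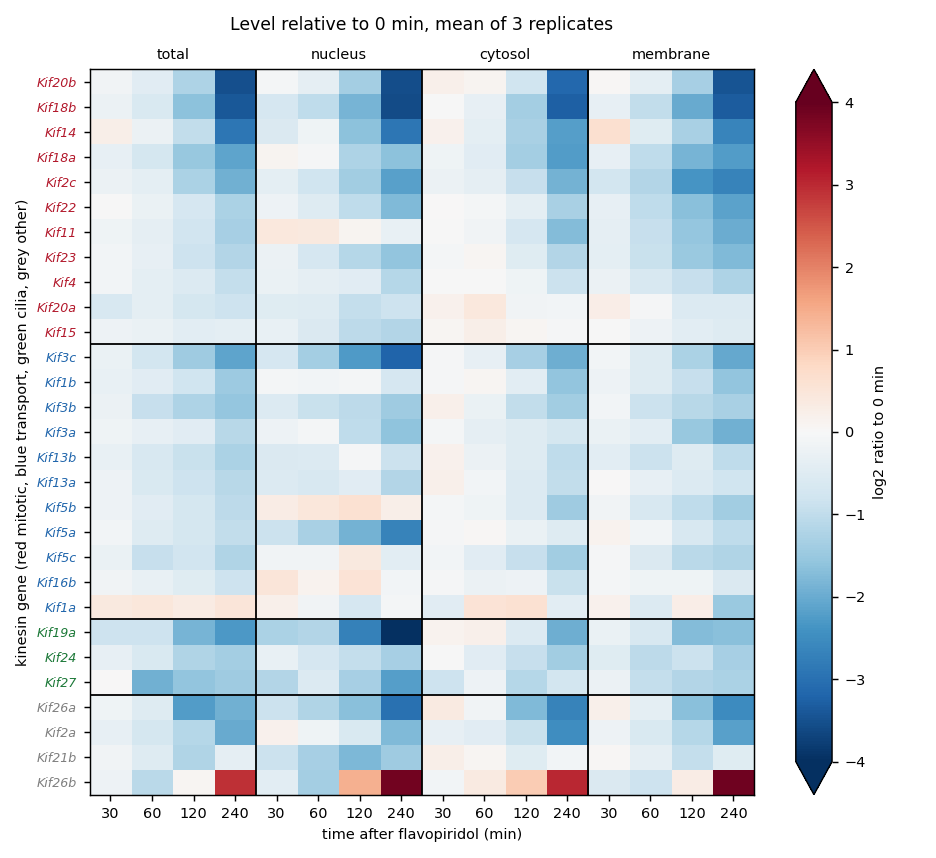
Log2 ratio to 0 min of 29 kinesins (rows, grouped by role and ordered by slope in total RNA) at 4 times in 4 fractions (columns), as the mean over the libraries that list the gene. The colour scale ends at 4 and -4 (blue is lower, red is higher). Kif20b and Kif18b are darkest among the mitotic kinesins at 240 min, and Kif26b is the red row at the bottom.

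Among the mitotic kinesins, Kif20b and Kif18b had the lowest slopes in total RNA. Kif20b, a motor of the central spindle needed to finish cytokinesis, lies on chr19:34922361-34975745 (mm10, + strand). In total RNA its ratio was 0.795, 1.01 and 0.911 at 30 min, 0.662, 0.677 and 0.845 at 60 min, 0.341, 0.475 and 0.485 at 120 min and 0.0970, 0.0874 and 0.0794 at 240 min. The 30 and 60 min groups overlapped, and from 60 min on each group lay wholly below the one before. Its slope was -0.97 ± 0.06 (SE, adjusted p = 3.38e-08) log2 per hour in total RNA, and 4.76% of all genes tested had a lower slope. The slopes in the other fractions were -1.01 ± 0.04 (SE, adjusted p = 3.94e-09) in the membrane fraction, -1.0 ± 0.06 (SE, adjusted p = 9.45e-09) for cytosolic RNA and -1.01 ± 0.06 (SE, adjusted p = 1.14e-07) for nuclear RNA, so that between 8.68 and 9.87% of the mean 30 min ratio was left at 240 min in any fraction. The fitted half-life in total RNA was 76.1 ± 5.94 min.

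Kif18b, which trims astral microtubules with the depolymerase Kif2c, followed closely. Its total RNA ratio went from 0.885, 0.803 and 0.857 at 30 min to 0.320, 0.306 and 0.348 at 120 min and 0.0911, 0.105 and 0.0906 at 240 min, and all 3 groups were separate. Its slope was -0.91 ± 0.04 (SE, adjusted p = 1.16e-08) in total RNA, -0.84 ± 0.06 (SE, adjusted p = 5.51e-08) in the membrane fraction, -0.94 ± 0.03 (SE, adjusted p = 9.23e-10) for cytosolic RNA and -0.84 ± 0.06 (SE, adjusted p = 1.74e-07) for nuclear RNA, with a half-life in total RNA of 66.7 ± 2.91 min. Its near relative Kif18a, which dampens chromosome movements at the metaphase plate, also fell. Kif18a had ratios of 0.674, 0.855 and 0.853 at 30 min and 0.227, 0.243 and 0.226 at 240 min in total RNA, a slope of -0.50 ± 0.06 (SE, adjusted p = 7.92e-06) and a half-life of 97.3 ± 5.43 min. Kif2c had a slope of -0.50 ± 0.05 (SE, adjusted p = 3.28e-06) and 30.6% of its 30 min ratio left at 240 min.

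The slow end of the mitotic group held Kif15, Kif20a and Kif4. Kif15 helps to keep spindle poles apart alongside Kif11. In total RNA its ratio was 0.811, 0.919 and 0.904 at 30 min and 0.767, 0.754 and 0.757 at 240 min. Cytosolic Kif15 stayed between 0.921 and 1.33 in all 12 libraries, with 1.12, 1.04 and 1.02 after 120 min and 0.984, 0.921 and 0.974 after 240 min, and the 30 and 240 min groups overlapped. Its slope in total RNA of -0.06 ± 0.04 (SE, adjusted p = 0.210) was not called, although relative to the median gene it became 0.17 and was called as a rise. In the nucleus its ratio went from 0.581, 1.08 and 0.834 to 0.453, 0.436 and 0.455. Kif15 was called as falling in the nucleus, with a slope of -0.23 ± 0.06 (SE, adjusted p = 0.00411). It was also called as falling in the membrane fraction, with -0.13 ± 0.04 (SE, adjusted p = 0.0105). Kif20a, the sister motor of Kif20b at the central spindle, scattered between replicates, with total RNA ratios of 0.521, 0.523 and 0.938 at 30 min and 0.675, 0.650 and 0.417 at 240 min, which overlapped. Its slope in total RNA was -0.08 ± 0.07 (SE, adjusted p = 0.351), also not called, and became 0.04 without replicate 3. Only in the membrane fraction was Kif20a called as falling, with -0.22 ± 0.08 (SE, adjusted p = 0.0220). Kif4, a chromosome-arm motor, fell from 0.898, 0.961 and 0.937 to 0.534, 0.529 and 0.500, with a slope of -0.22 ± 0.03 (SE, adjusted p = 3.79e-05), the rate of the median gene.

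The remaining mitotic kinesins lay in between. Kif22 (chromokinesin), Kif11 (the motor that slides spindle poles apart) and Kif23 (the motor subunit of centralspindlin) had slopes of -0.35, -0.33 and -0.30 in total RNA, all called. Kif14, a motor of the midbody, had a slope of -0.89 ± 0.15 (SE, adjusted p = 0.000215), but its replicates differed several-fold: at 240 min the total RNA ratios were 0.102, 0.429 and 0.0556, and 1 cytosolic library did not list it. Kif4 and Kif22 have pseudogenes, and reads shared with them may have been split. Counted by fraction, 9 of 11 mitotic kinesins fell in total RNA, 11 of 11 in the membrane fraction, 8 of 10 in the cytosol and 10 of 11 in the nucleus. The shares of all genes that fell were 56.9%, 62.2%, 67.1% and 61.9% in the same order.

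**Figure D2:**
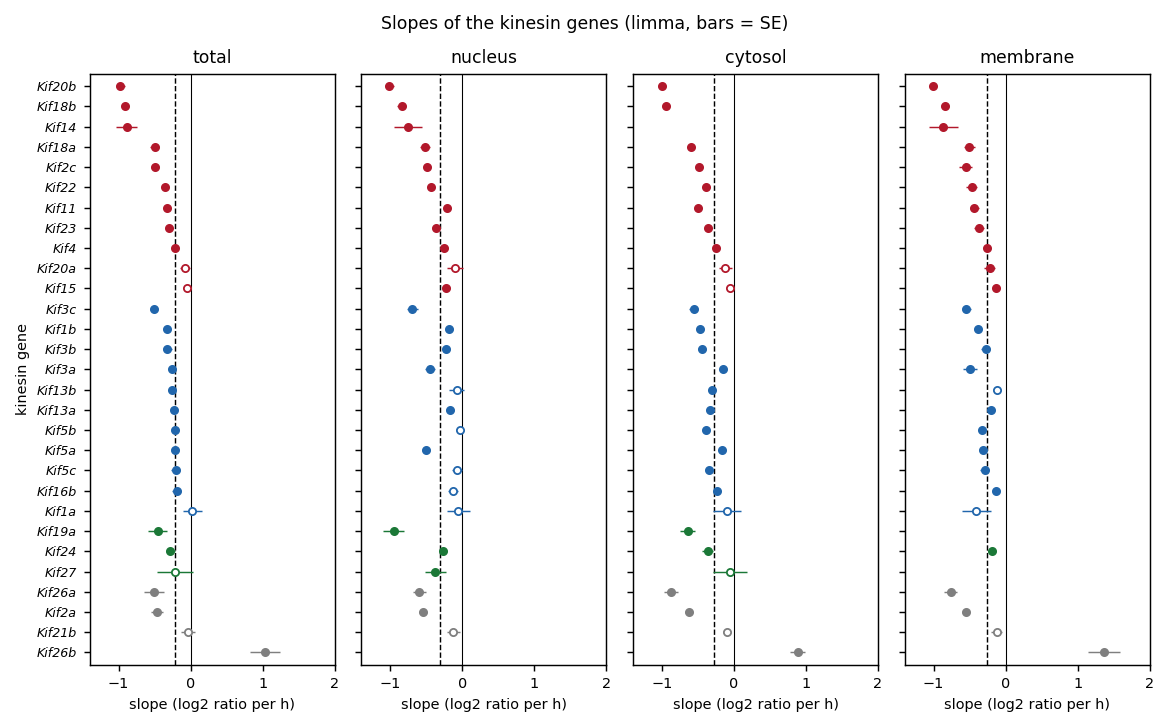
Slope of the log2 ratio per hour (x axis) of each kinesin (y axis) in the 4 fractions, from limma, with its SE as a bar. Red is mitotic, blue transport, green cilia and grey other, filled points passed an adjusted p under 0.05, and the dashed line is the median of all genes (-0.22 in total RNA). Kif26b is the one gene right of 0 that passed.

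Most transport kinesins fell, with slopes in total RNA from -0.51 to 0.02, where those of the mitotic kinesins ran from -0.97 to -0.06. In total RNA 10 of 11 fell, as did 9 of 11 in the membrane fraction, 10 of 11 in the cytosol and 6 of 11 in the nucleus, where 61.9% of all genes fell. Kif3c, a neuronal kinesin-2, had the lowest slope of the group. Its total RNA ratio was 0.755, 0.815 and 0.934 at 30 min, 0.347, 0.405 and 0.374 at 120 min and 0.250, 0.220 and 0.229 at 240 min, with no overlap between these times. Its slope was -0.51 ± 0.05 (SE, adjusted p = 2.07e-06) and its half-life 95.4 ± 12.8 min. Kif1b, a carrier of synaptic vesicle precursors and mitochondria, went from 0.776, 0.848 and 0.844 to 0.364, 0.381 and 0.360 with a slope of -0.33 ± 0.04 (SE, adjusted p = 3.73e-06). Kif3b, a subunit of heterotrimeric kinesin-2, went from 0.827, 0.844 and 0.905 to 0.354, 0.345 and 0.332 with a slope of -0.32 ± 0.06 (SE, adjusted p = 0.000604). Neither gene's 30 and 240 min groups overlapped.

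Kif5c, Kif16b and Kif1a had the highest slopes of the transport group. Kif5c, a kinesin-1 heavy chain enriched in neurons, had total RNA ratios of 0.758, 0.835 and 0.934 at 30 min and 0.396, 0.508 and 0.411 at 240 min, and a slope of -0.21 ± 0.07 (SE, adjusted p = 0.0154). Kif16b, which moves early endosomes, had 0.787, 0.976 and 0.974 at 30 min and 0.481, 0.595 and 0.618 at 240 min, and a slope of -0.19 ± 0.06 (SE, adjusted p = 0.0144). Kif1a, an axonal carrier of vesicles, gave no readable trend. Its total RNA ratios were 1.53, 0.905 and 1.62 at 30 min, 0.903, 0.736 and 2.91 at 120 min and 1.88, 1.69 and 0.876 at 240 min, its slope of 0.02 ± 0.13 (SE, adjusted p = 0.910) was not called, and leaving out replicate 1 or replicate 2 turned its sign. The slopes of Kif3a, Kif13b, Kif13a, Kif5b and Kif5a in total RNA lay between -0.26 and -0.22, and all 5 were called.

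Read as classes, the mitotic kinesins fell faster than the transport kinesins in each fraction by their medians. The median slope in total RNA was -0.35 for the 11 mitotic and -0.23 for the 11 transport kinesins, where that of all genes was -0.22. In the nucleus the medians were -0.44 and -0.17, where that of all genes was -0.30. There the median transport kinesin fell less than the median gene. The difference of the class medians (mitotic minus transport, log2 per hour, SD over the 3 replicate series) was -0.12 ± 0.01 in total RNA, -0.15 ± 0.04 in the membrane fraction, -0.10 ± 0.05 for cytosolic RNA and -0.27 ± 0.03 for nuclear RNA. A shift common to all genes of a library cancels in this difference. The difference is a description of chosen genes and was not tested. Its SD is over series that join libraries by replicate number, and these numbers did not meet the bar set for pairs across times. Without the nuclear 30 min library of replicate 1 the nuclear difference was -0.23. With Kif2a counted as mitotic, the difference in total RNA was -0.18.

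The gap between the classes changed with time and differed in course between fractions. Over the 10 mitotic and 11 transport kinesins listed everywhere, the mitotic median was the lower one in 34 of 48 libraries and in all 12 libraries at 240 min. In total RNA the mitotic median minus the transport median was 0.22 ± 0.02 at 60 min (log2, SD, n = 3), with the mitotic genes higher in each replicate, and -0.16 ± 0.03 at 240 min, with the mitotic genes lower in each replicate. In the nucleus it was -0.33 ± 0.15 at 60 min, -0.77 ± 0.21 at 120 min and -0.73 ± 0.07 at 240 min. The nuclear mitotic median at 240 min was -1.58, -1.61 and -1.61, near that of all genes (-1.44, -1.50 and -1.63). The nuclear transport median was higher, at -0.78, -0.87 and -0.96. In the membrane fraction the mitotic median was the lower one in each replicate from 30 min on, with -0.20 ± 0.09 at 30 min and -0.35 ± 0.13 at 60 min. At 240 min the median difference was -0.41 ± 0.08 for cytosolic RNA and -0.78 ± 0.20 for the membrane fraction. The classes overlapped gene by gene: at 240 min 6 of the 10 mitotic kinesins were below the median transport kinesin in all 3 total libraries. The median half-life in total RNA was 163 ± 4.78 min for the mitotic and 242 ± 26.6 min for the transport kinesins (SD over 3 replicate series), beside 244 min for all genes. This SD does not measure the spread over genes. Single half-lives ran from 66.7 to 988 min for mitotic and from 95.4 to 312 min for transport kinesins, of which 1 had no finite value. The order of the medians turned with the level at 0 min fixed at 1 (173 and 165 min), and after centring on the median gene the values were 515 and 20141 min.

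**Figure D3:**
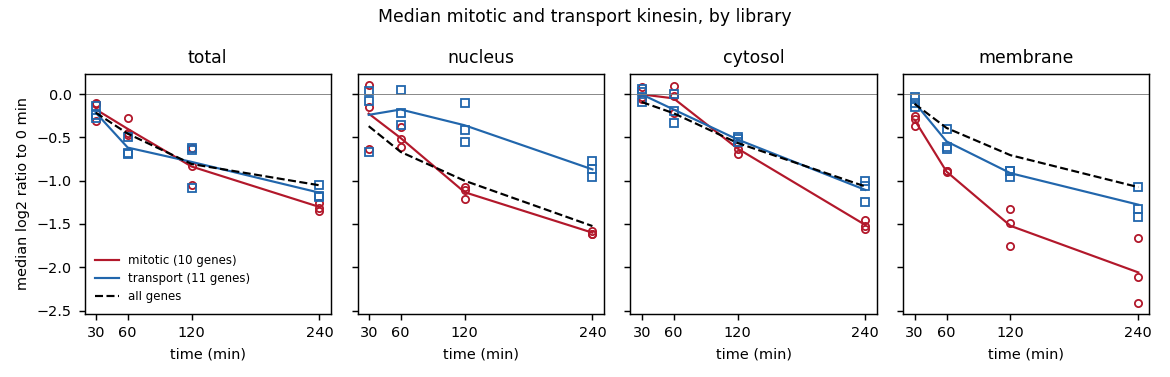
Median log2 ratio to 0 min (y axis) of 10 mitotic (red circles) and 11 transport kinesins (blue squares) in each library over time (x axis, min), with lines through the means of 3 replicates and the median of all genes dashed. At 240 min the red points lie below the blue ones in each fraction, most in the membrane fraction (-0.78) and nucleus (-0.73).

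A shared sequence element was looked up in the 3’UTRs after these values were known. The element is TGTANATA, the letters of the Pumilio recognition element, where Pumilio proteins are known to shorten the life of mRNAs, and only the strand of the mRNA was searched, in 1 principal transcript per gene. It was present in 7 of 11 mitotic kinesins (Kif11, Kif14, Kif18a, Kif20a, Kif20b, Kif22 and Kif23), in 4 of 10 transport kinesins, in 0 of 3 cilia kinesins and in 4 of 4 other kinesins. Over the 9599 genes listed in all total libraries with a 3’UTR the share was 25.3%, and for the 28 kinesins it was 15, or 53.6%. These shares were not matched for the length of the 3’UTR. For the 4 other kinesins, the share among genes of like length was 75.9% (Kif26b), 51.2% (Kif21b), 45.4% (Kif2a) and 22.5% (Kif26a). For Kif14 it was 51.2%. For the 4 transport kinesins with the element it was 38.3% (Kif16b), 44.9% (Kif1a), 48.7% (Kif3c) and 43.6% (Kif5a). For the transport kinesins without the element it ran from 12.4% (Kif1b) to 48.9% (Kif5c). The sites in short 3’UTRs are shown with 10 bases on either side, the element in capitals, since among genes with 3’UTRs of similar length few carry it: 7.18% at the length of Kif20b, 11.1% for Kif18a, 9.25% for Kif23 and 3.45% for Kif22.
Kif20b, chr19:34975635-34975662, + strand: aaaatttactTGTATATAtatatatatt
Kif20b, chr19:34975689-34975716, + strand: attggtatctTGTATATAattttaattc
Kif18a, chr2:109341634-109341661, + strand: ggtgtaaaaaTGTAGATAcatatgtcca
Kif18a, chr2:109341658-109341685, + strand: tccattgcatTGTAAATAttgtttaaat
Kif23, chr9:61917330-61917357, - strand: gagttttgtaTGTATATAttcactttct
Kif22, chr7:127027735-127027762, - strand: tgacgtgttgTGTAAATAcagtttttat
Coordinates are those of mm10 (GENCODE vM21), and each sequence reads 5’ to 3’ on the mRNA. The 3’UTR of Kif20b is 165 bases long and that of Kif22 is 62. The element did not separate fast from slow genes within the mitotic group, with a median slope in total RNA of -0.35 for the 7 with it and -0.36 for the 4 without. Kif18b has none. A match of letters does not show that the site is bound. The AU-rich letters TATTTAT, searched in the same way, were in 9 of 28 kinesins (32.1%) and in 28.6% of all genes, and a site of either kind may share bases with one of the other.

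The question whether levels changed at different rates in the nucleus and the cytosol was addressed by testing the difference of slopes itself. A slope is the net change of a level and does not separate loss from supply by an earlier step. The paper likewise sets such aggregated turnover apart from rates of transition between compartments. Of 27 kinesins fitted, 5 had a higher slope in the nucleus than in the cytosol (Kif5b, Kif11, Kif1b, Kif5c and Kif3b) and 2 had a lower one (Kif5a and Kif3a). Of all 11232 genes, 12.3% were called higher and 8.3% lower in the nucleus. Of the 7 called, 6 were transport kinesins. Both kinesin-1 and kinesin-2 families held members of either direction.

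Kif5b, the kinesin-1 heavy chain that most cells use, had the largest called difference (nucleus minus cytosol, log2 per hour), 0.36 ± 0.06 (SE, adjusted p = 0.000277). Its nuclear ratio was 0.987, 1.57 and 1.17 at 30 min, 1.59, 1.61 and 1.37 at 120 min and 1.19, 1.16 and 1.17 at 240 min, so 11 of 12 nuclear libraries lay above the 0 min level. Its cytosolic ratio was 0.828, 1.00 and 1.03 at 30 min, 0.699, 0.680 and 0.659 at 120 min and 0.399, 0.365 and 0.366 at 240 min. The nuclear and cytosolic libraries were separate from 60 min on.

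Its relative Kif5c differed by 0.28 ± 0.08 (SE, adjusted p = 0.0220), with nuclear ratios of 0.691, 1.05 and 1.04 at 30 min, 1.48, 1.23 and 1.24 at 120 min and 0.767, 0.737 and 0.742 at 240 min. In the cytosol Kif5c had 0.900, 0.916 and 0.979 at 30 min, 0.548, 0.543 and 0.506 at 120 min and 0.329, 0.394 and 0.432 at 240 min. Both genes therefore peaked in the nucleus at 120 min by their means. The third kinesin-1 heavy chain, the neuronal Kif5a, went the other way, with a difference of -0.35 ± 0.06 (SE, adjusted p = 0.000729). Its nuclear ratio was 0.394, 0.667 and 0.647 at 30 min and 0.165, 0.157 and 0.147 at 240 min, whereas its cytosolic ratio was 0.865, 1.01 and 1.05 at 30 min and 0.694, 0.730 and 0.657 at 240 min. The mean 240 min ratio was 27.4% of the 30 min mean in the nucleus and 71.1% in the cytosol, against 94.7% and 39.5% for Kif5b.

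Kif3a and Kif3b, partners in heterotrimeric kinesin-2, also differed in opposite directions. Kif3a had a difference of -0.29 ± 0.08 (SE, adjusted p = 0.0104). Its ratio at 240 min was 0.338, 0.349 and 0.300 in the nucleus and 0.608, 0.541 and 0.696 in the cytosol, with no overlap, from 30 min values of 0.629, 0.960 and 1.10 in the nucleus and 0.936, 0.870 and 1.02 in the cytosol. Kif3b had a difference of 0.22 ± 0.08 (SE, adjusted p = 0.0435), and here the fractions ended together, at 0.374, 0.407 and 0.344 in the nucleus and 0.375, 0.408 and 0.353 in the cytosol, after starting at 0.525, 0.760 and 0.797 in the nucleus and 1.05, 1.13 and 1.27 in the cytosol. The 30 min libraries of the fractions did not overlap. Without the nuclear 30 min library of replicate 1 the difference for Kif3b was 0.20 with an adjusted p of 0.0664, no longer called, whereas the other 6 differences were still called.

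Kif11 was the one mitotic kinesin called, with a difference of 0.29 ± 0.05 (SE, adjusted p = 0.000405). Its nuclear ratio was 1.10, 1.65 and 1.29 at 30 min and 0.802, 0.784 and 0.856 at 240 min, and its cytosolic ratio was 0.893, 1.00 and 1.09 at 30 min and 0.319, 0.284 and 0.303 at 240 min. The fractions were separate at 240 min. Kif1b differed by 0.29 ± 0.07 (SE, adjusted p = 0.00387), with 0.638, 0.627 and 0.602 left in the nucleus and 0.373, 0.323 and 0.316 in the cytosol at 240 min.

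All 7 differences kept their sign in each of 14 other settings, but not all kept their call. Kif5b, Kif11 and Kif5a were called with any 1 replicate left out. Kif1b was lost without replicate 3 (adjusted p = 0.0984), Kif3a without replicate 2 (0.0826) or 3 (0.137), and Kif5c and Kif3b whichever of the 3 was left out. With libraries scaled to the mRNAs encoded by mitochondria none of the 7 was called (adjusted p from 0.123 for Kif5b to 0.565 for Kif3a). Of all 11232 genes, only 14 were then called lower and 36 higher in the nucleus. Over 30 to 120 min alone Kif5b and Kif5c were called, and Kif11 (adjusted p = 0.334), Kif1b (0.337), Kif3a (0.321), Kif3b (0.0884) and Kif5a (0.0755) were not.

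**Figure D4:**
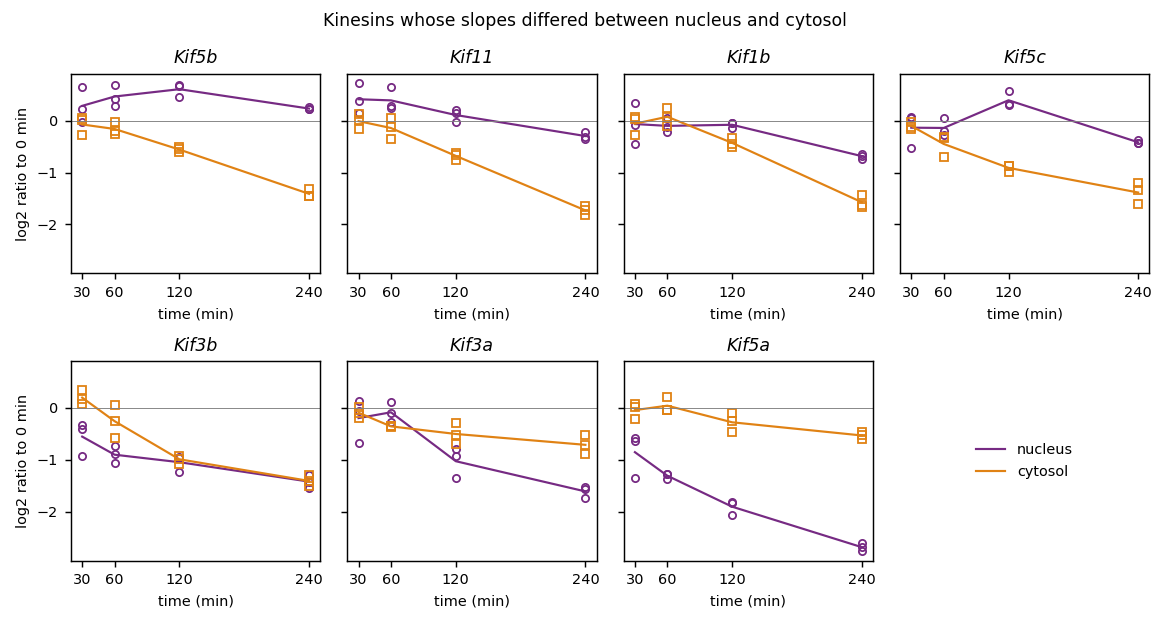
Log2 ratio to 0 min (y axis) over time (x axis, min) of the 7 kinesins whose slopes differed between nucleus (purple circles) and cytosol (orange squares), 1 point per library, with lines through the means. Kif5b stays above 0 in the nucleus by its mean, while Kif5a ends at a mean ratio of 0.156 there and 0.694 in the cytosol.

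In the membrane fraction, the part of the cell freed by a stronger detergent after the cytosol was drawn off, 0 of 26 kinesins were called different from the cytosol by limma. Over all 11086 genes, 4.94% were called higher and 1.76% lower in the membrane fraction. At an unadjusted p under 0.05, 2 kinesins were higher (Kif13a and Kif13b) and 2 lower (Kif3a and Kif5a). The lowest adjusted p was that of Kif3a, with a difference of -0.33 ± 0.11 (SE, adjusted p = 0.0660). Kif3a ratios at 240 min were 0.171, 0.299 and 0.352 in the membrane fraction against 0.608, 0.541 and 0.696 in the cytosol, which did not overlap. With the membrane and cytosolic libraries of the same number and time taken as pairs from 1 harvest, Kif3a was called lower (adjusted p = 0.0375) and Kif13a higher by 0.12 (0.0391). Other settings called up to 12 kinesins lower. With mitochondrial scaling 12 were called lower, and so were 4780 of all 11086 genes. Kif3a and Kif5a were called lower after centring or with equal library totals, and Kif2c and Kif22 over 30 to 120 min. Kif3a was called lower with 180 min as the last time, and Kif5a without replicate 3.

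Kif26b was the one kinesin called as rising. It encodes an unconventional kinesin that lacks motor activity and acts in cell adhesion, and lies on chr1:178529125-178939200 (mm10, + strand), the longest gene of the 29 at 410 kb. It was singled out after its values were seen. Its total RNA ratio was 0.423, 0.750 and 2.02 at 30 min, 1.11, 0.423 and 0.233 at 60 min, 0.499, 1.63 and 1.41 at 120 min and 5.19, 8.70 and 9.52 at 240 min. The earlier values scattered between 0.233 and 2.02, and the 240 min libraries stood above every earlier one. At 240 min the cytosolic ratios were 9.09, 6.95 and 8.33, the membrane ratios 11.5, 17.4 and 16.0 and the nuclear ratios 14.9, 15.0 and 13.3. In the nucleus it was already at 3.11, 2.55 and 2.46 at 120 min, up from 0.703, 0.156 and 0.533 at 60 min, and replicate 2 did not list it at 30 min.

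The slope of Kif26b was 1.03 ± 0.21 (SE, adjusted p = 0.000789) in total RNA, 1.37 ± 0.22 (SE, adjusted p = 0.000135) in the membrane fraction and 0.89 ± 0.10 (SE, adjusted p = 5.85e-06) for cytosolic RNA, and at most 0.03% of all genes had a higher slope. With genes listed in at least 10 of 12 libraries admitted, its nuclear slope was 1.46 ± 0.18 (SE, adjusted p = 3.18e-05). Over 30 to 120 min alone its slope was 0.32 in total RNA (adjusted p = 0.631) and 0.68 in the membrane fraction (0.360), not called, but 0.74 in the cytosol (0.0350), still called. The ratios of the genes on either side did not exceed 1.65 in any 240 min library. Efcab2, 44.6 kb upstream on the same strand, had total RNA ratios of 0.887, 0.855 and 0.888 at 240 min. Smyd3, 12.8 kb downstream on the opposite strand, had 1.18, 1.12 and 1.16. By its slope Smyd3 was called as rising in the nucleus only, with 0.11 ± 0.04 (SE, adjusted p = 0.0427). Its nuclear ratios at 240 min were 1.59, 1.45 and 1.31. Efcab2 was called in no fraction. Kif26a, the namesake of Kif26b, fell in all fractions, from 1.05, 0.897 and 0.763 to 0.273, 0.257 and 0.267 in total RNA, with a slope of -0.51 ± 0.14 (SE, adjusted p = 0.00604).

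Kif21b, a slow motor that restrains microtubule growth, first fell and then came back. In total RNA its ratio was 0.971, 0.746 and 1.04 at 30 min, 0.710, 0.597 and 0.809 at 60 min, 0.441, 0.459 and 0.394 at 120 min and 0.686, 0.831 and 0.826 at 240 min. Every 240 min library was above every 120 min library. A straight line missed this, with a slope of -0.04 ± 0.09 (SE, adjusted p = 0.744). The 240 and 120 min libraries were therefore compared in limma with time as a factor, a test added after the values were seen. Kif21b was higher at 240 min on the log2 scale by 0.85 ± 0.16 (SE, adjusted p = 0.00217) in total RNA, by 0.38 ± 0.10 (SE, adjusted p = 0.00823) in the cytosol and by 0.48 ± 0.14 (SE, adjusted p = 0.0209) in the membrane fraction. In the nucleus the difference was 0.36 ± 0.26 (SE, adjusted p = 0.320), not called, although it was called under each of 3 other scalings of the libraries. Its cytosolic ratios were 0.718, 0.680 and 0.754 at 120 min and 0.882, 1.00 and 0.924 at 240 min, and its membrane ratios 0.564, 0.514 and 0.461 at 120 min and 0.604, 0.805 and 0.751 at 240 min.

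Kif21b and Kif26b were the kinesins called higher at 240 than at 120 min, with 2 of 29 in total RNA, 2 of 28 in the cytosol and 2 of 27 in the membrane fraction. The shares over all genes were 5.92%, 2.78% and 3.72%. In the nucleus none of 28 was called, nor reached an unadjusted p under 0.05, where 1.97% of all genes were called. Kif26b, missing from that fit, was higher by 2.35 in the nucleus (adjusted p = 0.0179) when replicate 2 was left out. Kif26b was higher at 240 min by 2.85 ± 0.70 (SE, adjusted p = 0.0102) in total RNA. The call of Kif21b in total RNA was lost without replicate 3 (adjusted p = 0.0565), and that of Kif26b without replicate 2 (0.102). In the cytosol Kif21b was lost whichever replicate was left out, and in the membrane fraction Kif21b was lost without replicate 2 or 3 and Kif26b without replicate 1 (0.0534). With mitochondrial scaling Kif21b was called in none of total RNA, cytosol and membrane fraction.

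**Figure D5:**
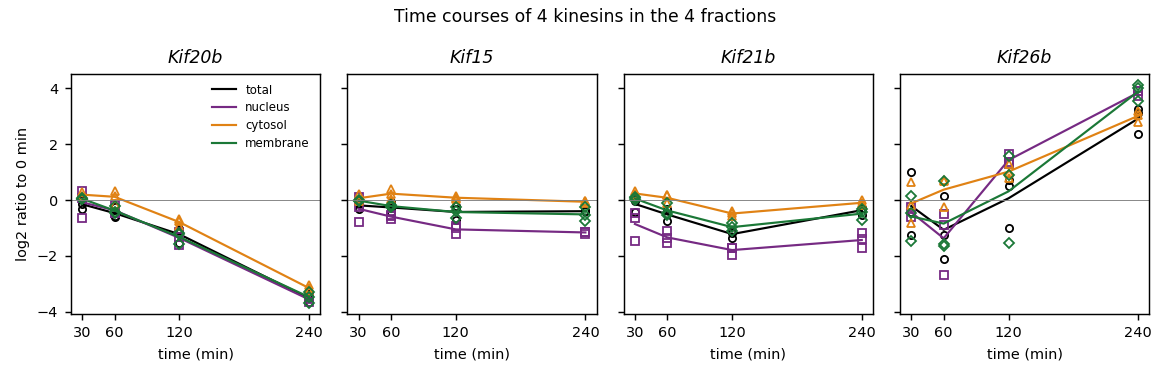
Log2 ratio to 0 min (y axis) of 4 kinesins over time (x axis, min) in total RNA (black circles), nucleus (purple squares), cytosol (orange triangles) and membrane fraction (green diamonds), 1 point per library, with lines through the means. Kif20b falls in all fractions, Kif15 stays near 0 in the cytosol, Kif21b dips at 120 min, and Kif26b climbs at 240 min to total RNA ratios of 5.19, 8.70 and 9.52.

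The other kinesins outside mitosis and transport fell or could not be called. Kif2a, a microtubule depolymerase of neurons and spindle poles, went from 0.709, 0.865 and 0.849 to 0.282, 0.237 and 0.232 in total RNA with a slope of -0.47 ± 0.08 (SE, adjusted p = 0.000356). Its replicate 1 was low at 120 min, at 0.244 against 0.636 and 0.592. Kif24, which holds back cilium growth, went from 0.677, 0.743 and 0.974 to 0.395, 0.367 and 0.418 with a slope of -0.28 ± 0.06 (SE, adjusted p = 0.00140). Kif19a, which sets cilium length, had a slope of -0.45 ± 0.13 (SE, adjusted p = 0.00943), and 1 membrane library did not list it. Kif27, a motile cilium gene, ranged from 0.124 to 1.43 over the total libraries and was not called. The kinesin-binding protein gene Kif1bp was listed in no nuclear library, ranged from 0.268 to 1.91 in total RNA and had a slope of -0.35 ± 0.15 (SE, adjusted p = 0.0589), not called.

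Genes that work with these motors were counted from lists taken by function. Of 10 fitted mitotic partners (such as Birc5 and Cit), 7 fell in total RNA and none rose, at adjusted p or at an unadjusted p under 0.05, with a median slope of -0.29. Their share that fell was near the background of 56.9% (3.39% rose). They ranged from -1.50 for Birc5, a subunit of the chromosomal passenger complex that Kif20a brings to the central spindle, to -0.02 for Cit. Of 8 fitted partners of transport kinesins, with Kif1bp counted among them, 7 fell in total RNA, with a median of -0.31. The set of 8 fitted in the nucleus held Klc1 and not Kif1bp. All 8 fell there, with a median of -0.53, where 61.9% of all genes fell and their median was -0.30. Klc1, a light chain of kinesin-1, was lowest at -0.88 and was not fitted in total RNA. Of 16 dynein and dynactin genes, motors of the opposite direction, 8 fell in total RNA, again near the 56.9% of all genes, with a median of -0.20.

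The slopes of the 29 kinesins in total RNA went up with gene length, with Spearman’s rho of 0.42 against 0.13 over 9599 genes with a 3’UTR. Against the number of exons rho was 0.33, and against the length of the 3’UTR it was 0.33 (28 kinesins), where all genes gave 0.22 and -0.14. These are descriptions across genes that share libraries, with no p, and genes are not independent replicates.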

How the data were processed

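Polyadenylated RNA of 48 libraries (4 fractions, 4 times, 3 replicates) was sequenced with a strand-specific kit. The authors aligned reads with STAR 2.7.6, estimated gene levels with RSEM 1.3.3, scaled libraries on transcripts known to be long-lived and deposited each value as a ratio to 0 min. No file holds a value of 0, why a gene is not listed in a library is not stated, depth is unknown, and whether counting used strand is not given in the sources used here. From these ratios, the slope of log2(ratio) on time in hours was fitted per fraction with limma 3.58.1 (R 4.3.3) over genes listed in all 12 libraries, with no pseudocount and an adjusted p threshold of 0.05. Differences of slopes came from 24 libraries of a pair of fractions. By the protocol the fractions of a harvest come from 1 culture, but that equal numbers mark 1 culture is not stated, so a fit with such pairs was an alternative. Half-lives are least squares fits of an exponential with a free start, with the SD over 3 replicate series. On simulated data 73 to 81.5% of 200 genes with slopes of 0.5 were recovered, with 6 to 11 false calls. The members, their classes and all lists were chosen with earlier results of these data known. Values per library are given for the 3 lowest and 3 highest slopes in total RNA among mitotic and among transport kinesins, the 2 lowest and 2 highest of the rest, all listed in all 48 libraries, and the kinesins with a called difference between fractions. Kif2c, Kif14 and Kif26b were added after their values were seen. Alternatives covered scaling, pseudocount, filter, times, block and each replicate left out. Gene models are those of GENCODE vM21 (GRCm38), and 23786 of 23862 genes matched.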

Additional observations from a re-analysis of the deposited data

Results flagged for a closer look

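In 7 kinesins the change over time differed between nucleus and cytosol by a test of the difference of slopes itself (limma, nucleus minus cytosol, log2 per hour). The difference was 0.36 for Kif5b (adjusted p = 0.000277), 0.29 for Kif11 (0.000405), 0.29 for Kif1b (0.00387), 0.28 for Kif5c (0.0220) and 0.22 for Kif3b (0.0435). It was -0.35 for Kif5a (0.000729) and -0.29 for Kif3a (0.0104). Each kept its sign under all 14 alternatives. Kif5b was still called under 13 of these, Kif11 and Kif5a under 12, Kif1b under 11, Kif3a and Kif5c under 10, and Kif3b under 5.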

How the results depend on the processing

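With libraries centred on their median gene, 11 kinesins fell and 2 rose in total RNA, 10 fell and 10 rose in the nucleus, 13 fell and 5 rose in the cytosol, and 12 fell and 4 rose in the membrane fraction. By construction this subtracts the median slope. The total RNA slope then turned positive for Kif4 (0.0065), Kif20a (0.15), Kif15 (0.17), Kif5c (0.021), Kif16b (0.036), Kif21b (0.19), Kif5a (0.012) and Kif5b (0.0057), 8 kinesins had a higher and 2 in the membrane fraction a lower slope than in the cytosol, and 2 were higher at 240 than at 120 min in the nucleus. With equal library totals, 2 rose in total RNA, 1 rose and 13 fell in the nucleus, 3 rose in the cytosol, 2 were lower in the membrane fraction than in the cytosol, 1 was higher at 240 min in the nucleus, and the slopes of Kif20a (0.078), Kif15 (0.10) and Kif21b (0.12) turned positive. With mitochondrial mRNAs as the scale, 6 fell in the nucleus and 12 in the cytosol. Over all genes 2789 of 13343 fell in the nucleus and 3971 of 11979 in the cytosol by this scale. Then 0 kinesins differed between nucleus and cytosol, and of all 11232 genes 14 were lower and 36 higher in the nucleus. In the membrane fraction 12 kinesins were lower than in the cytosol, as were 4780 of all 11086 genes. With this scale 1 kinesin was higher at 240 min in each of the 4 fractions, and Kif1a turned to -0.12. The cause was not tested.

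Over 30 to 120 min alone, 15 of the 36 gene values lost or gained their call or changed sign, against 12 with centring. Then 0 rose in total RNA, 1 rose in the nucleus, 0 rose in the membrane fraction, 0 were lower in the nucleus and 2 lower in the membrane fraction than in the cytosol, and Kif1a had -0.062. With 180 min as the last time, 1 was lower in the membrane fraction. With genes listed in at least 10 of 12 libraries, 1 rose in the nucleus. Leaving out each replicate gave 0 to 1 rising in the nucleus, 1 to 2 with a lower and 2 to 3 with a higher slope in the nucleus than in the cytosol, 0 to 1 lower in the membrane fraction, and 1 to 2 higher at 240 min in total RNA, 1 in the membrane fraction, 1 in the cytosol and 0 to 1 in the nucleus. Kif1a then ranged from -0.063 without replicate 1 (-0.054 without replicate 2) to 0.18 without replicate 3, and Kif20a 0.039 without replicate 3.

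The mitotic minus transport median slope in total RNA was -0.10 with a pseudocount of 0.1, -0.15 over 30 to 120 min, -0.15 with 180 min as the last time, -0.18 with Kif2a as mitotic and -0.10 without Kif1a and Kif14 (an alternative chosen after seeing the data). In the nucleus it was -0.22 with the pseudocount, -0.57 over 30 to 120 min, -0.40 with 180 min, -0.23 without the nuclear 30 min library of replicate 1, -0.23 over genes listed in all 48 libraries, -0.22 without Kif1a and Kif14, and from -0.30 to -0.24 with 1 replicate left out. In the cytosol it was -0.15 with genes listed in at least 10 of 12 libraries and -0.15 with Kif2a as mitotic. In the membrane fraction it was -0.10 with the pseudocount, -0.36 over 30 to 120 min and -0.23 with 180 min. It stayed negative throughout. The median half-life in total RNA was, for mitotic and transport kinesins, 173 and 165 min with the start fixed at 1, 122 and 180 min over 30 to 120 min, 515 and 20141 min after centring, and 116 and 148 min with mitochondrial scaling. The mitotic value was 171 min from a straight line on log2 values, and leaving out a replicate gave 156 to 167 min for mitotic and 212 to 234 min for transport kinesins.

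Across times the replicate numbers did not meet the bar set for pairs, a correlation over 0.1 in every pair: deviations of libraries with the same number at other times correlated at -0.0317 to 0.273 in total RNA. Within a time, membrane and cytosolic libraries of the same number correlated positively in all 12 pairs (0.0321 to 0.167, against a median of -0.0284 for other numbers), and nuclear and cytosolic ones at -0.0959 to 0.0631. With a replicate block 23 kinesins fell in total RNA, 24 in the membrane fraction, 22 in the cytosol and 20 in the nucleus, and Kif3b was no longer called for nucleus against cytosol. With a block by number and time, 1 kinesin was lower and 1 higher in the membrane fraction than in the cytosol, and all 7 differences between nucleus and cytosol were called. Of 448 alternative values of 36 gene slopes and differences, 381 kept their direction and call, 48 lost the call, 3 gained it and 16 reversed.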
